A study of Rattus norvegicus with 18 samples.

Results

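Mitochondrial ribosomal proteins are the protein subunits of the ribosome that works inside mitochondria. They were taken here as every entry of the count table whose gene symbol begins with Mrpl or Mrps and a digit, which gave 72 of 30560 entries under 71 symbols. By their place in the ribosome, 45 entries belong to the large subunit and 26 to the small subunit. Mrps30 and Mrps18a were counted with the large subunit, where their proteins sit despite the name. Mrps36 stands alone, because its protein is known as a component of the 2-oxoglutarate dehydrogenase complex.

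The mitochondrial ribosome translates the mRNAs of mitochondrial DNA, which encode core subunits of the respiratory chain and of ATP synthase. Its rRNAs come from mitochondrial DNA, but all of its proteins are encoded in the nucleus, made in the cytosol and imported. Muscle fibres depend on this supply because their oxidative metabolism needs subunits from both genomes.

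RNA was sequenced from the tibialis anterior, a shin muscle rich in fast fibres, in 18 rat libraries of 5 groups. At 9 months there were 3 libraries labelled DMD, a rat model of Duchenne muscular dystrophy, and 6 labelled p16-null DMD, set against 3 wild-type (WT) libraries of the same age. Further WT libraries came from rats of 18 months and of 3 months, with 3 in each group. The labels give neither the alleles nor the strain, and only the numbered titles separate the libraries of a group, so p-values measure the spread between libraries, part of which may be technical.

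Library totals ran from 9.61 to 21.99, in units of 1e+06 estimated counts. Dmd, the dystrophin gene, stood at 31.4 to 44.3 CPM in DMD and 30.9 to 54.1 CPM in p16-null DMD libraries, against 114 to 167 CPM in WT at 9 months. Cdkn2a, whose products include p16, stood at 10.7 to 19.4 CPM in DMD and 10.1 to 15.3 CPM in p16-null DMD, against 0 to 0.184 CPM in WT at 9 months. Gene counts pool the transcripts of Cdkn2a, so they do not check the p16-null label. CPM here are counts scaled to a library of 1e+06 after TMM scaling over all 18 libraries, a scaling that assumes that most genes do not change. Its factors ran from 1.13 to 1.25 for DMD libraries, from 1.04 to 1.27 for p16-null DMD libraries, against 0.728 to 0.801 in WT at 9 months. The main counts and medians are therefore also given with libraries scaled by their total counts.

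Most members were expressed at a moderate level. Per unit of length, 64 entries averaged between 10 and 100 TPM over the 18 libraries, 5 lay above 100 and 3 below 10, with a median of 38.9 TPM. The highest means over all libraries were those of Mrpl17, a protein near the exit of the peptide tunnel, at 171 TPM, Mrpl27, which reaches towards the catalytic centre, at 155 TPM, and Mrpl54 at 145 TPM. The order depended on the group. Mrpl17 averaged 172 ± 28.8 TPM in DMD, 191 ± 17.6 TPM in p16-null DMD and 135 ± 18.1 TPM in WT at 9 months (SD, n = 3, 6 and 3), while Mrpl54 averaged 114.5 ± 23.1, 115 ± 15.1 and 190.2 ± 18.8 TPM in these groups. The lowest were Mrps21l, listed at 0 in every library, the second of 2 entries for Mrpl42 (0.304 TPM) and Mrps17 (3.36 TPM). Mrps21l and that second Mrpl42 entry (ENSRNOG00000025964) did not pass the filter on low counts in any fit, so 70 members were tested, of which 44 belong to the large and 25 to the small subunit. Mrps17 is uncertain. Its counts were not whole in 13 libraries, which is how shared reads appear, and it stood at 0 CPM in 2 DMD libraries and at 18.4 CPM in the other. Mrps34, Mrpl40 and Mrpl41 also had counts that were not whole, in 16, 12 and 11 libraries. In the RefSeq annotation 23 of the symbols have a pseudogene, including Mrpl15, Mrpl17, Mrpl23, Mrpl40, Mrpl42, Mrpl45, Mrpl54, Mrps17, Mrps18b, Mrps18c and Mrps36, and 18 overlap another gene, such as Mrpl16 with Stx3. Reads of such copies or neighbours may be split or merged in these counts.

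Promoter sequence is shown for 4 members whose RNA behaved differently below. All 4 windows hold a match to a motif searched, but the windows of other such members, Mrps26 among them, have none. The 4 shown therefore do not stand for the rest. Mrpl45 and Mrpl17 were higher relative to the other members in old and in dystrophic muscle, Mrps18b was lower relative to them in dystrophic muscle, and Mrpl52 was not called lower there. Each run is the 250 bases before the annotated start in RefSeq (GRCr8), 5′ to 3′ on the strand of the gene, and capitals mark matches to a motif. The motifs searched on both strands were GCGC and TGCGC with 1 base of any kind between them for NRF1, CCGGAAG for ETS factors such as GABP, and AAGATGGCG for YY1, all of them factors linked to nuclear genes of mitochondria. Capitals are NRF1 matches in the first 3 runs and an ETS match in the fourth.
Mrpl45 (chr10:82804789-82805038, plus strand): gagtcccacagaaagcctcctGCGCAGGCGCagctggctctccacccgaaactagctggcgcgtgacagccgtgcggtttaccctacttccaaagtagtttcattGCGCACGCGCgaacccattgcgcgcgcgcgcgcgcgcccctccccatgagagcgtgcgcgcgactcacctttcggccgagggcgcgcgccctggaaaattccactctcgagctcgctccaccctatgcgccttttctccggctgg
Mrpl17 (chr1:169575700-169575949, minus strand): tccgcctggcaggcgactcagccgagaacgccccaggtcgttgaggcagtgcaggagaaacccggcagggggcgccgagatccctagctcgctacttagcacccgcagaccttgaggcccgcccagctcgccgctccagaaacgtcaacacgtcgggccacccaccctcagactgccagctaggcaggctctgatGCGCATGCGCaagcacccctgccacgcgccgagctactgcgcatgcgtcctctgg
Mrps18b (chr20:2842756-2843005, plus strand): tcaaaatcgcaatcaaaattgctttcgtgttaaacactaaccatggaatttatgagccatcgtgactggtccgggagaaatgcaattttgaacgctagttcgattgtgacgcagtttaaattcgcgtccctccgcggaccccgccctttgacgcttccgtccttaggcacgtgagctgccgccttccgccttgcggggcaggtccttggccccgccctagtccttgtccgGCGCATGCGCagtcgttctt
Mrpl52 (chr15:31852686-31852935, plus strand): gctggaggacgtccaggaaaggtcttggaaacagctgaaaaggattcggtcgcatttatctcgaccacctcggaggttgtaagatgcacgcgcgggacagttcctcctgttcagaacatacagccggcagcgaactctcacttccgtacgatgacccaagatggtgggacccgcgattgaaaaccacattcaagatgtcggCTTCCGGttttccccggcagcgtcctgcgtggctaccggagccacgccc

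A window was found for 55 of the 71 symbols. The NRF1 motif was present in 7 of these windows (12.7%), against 4.17% of all 27457 promoter windows of the same length. The ETS motif was present in 11 (20.0%, against 7.74% of all windows) and the YY1 motif in 1, that of Mrpl36 (1.82%, against 0.736%). In all, 17 member windows held at least 1 of the motifs (30.9%, against 11.8%). Among the 18999 windows of protein-coding genes the shares were 5.44% for NRF1, 9.52% for ETS, 0.784% for YY1 and 14.6% for any of them. A match describes these letters only. Mrpl45 and Mrpl17, with NRF1 matches, and Mrps18b, which also has one, moved differently from each other in the comparisons that follow. The other members called higher or lower in DMD against the member total are listed below. Of these, Mrpl23 has an ETS match, and the windows of Mrps26, Mrps2, Mrpl20, Mrpl49, Mrps33, Mrpl40, Mrpl54 and Mrpl4 have no match. The rest have no window, and no link between motifs and RNA was tested.

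In DMD muscle at 9 months, with TMM scaling, the RNA of nearly all mitochondrial ribosomal proteins was lower than in WT muscle. Both subunits fell to about the same degree. The 70 tested members had a median log2 fold change of -0.98, against 0.11 over all genes tested. Of these members 61 fell and none rose (edgeR quasi-likelihood test, Benjamini-Hochberg adjusted p under 0.05), where 21.8% of all 14801 genes tested were called lower and 26.4% higher. The large subunit fell in 40 of 44 members (median -0.9998) and the small subunit in 20 of 25 (median -0.93). For 62 members every DMD library lay below every WT library, as did 25.7% of all genes. On the scale of library totals 36 members lay wholly below WT and 5 wholly above, beside 10.3% and 55.6% of all genes.

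The sum of the members shows how much of this rests on scaling. As a share of the library total it was 1976, 2066 and 1830 per 1e+06 counts in the 3 DMD libraries and 1862 to 2409 in p16-null DMD (median 1977), against 2498, 2549 and 2458 in WT at 9 months. The DMD and p16-null DMD libraries all lay below the WT libraries. On the TMM scale the sum was 1617, 1828 and 1461 CPM in DMD and 1525 to 1941 CPM in p16-null DMD, against 3433, 3308 and 3069 CPM in WT, so the gap widened. When libraries were scaled by their totals, 28 members fell in DMD and 2 rose, Mrpl52 and Mrps26, beside 8.38% of all genes lower and 52.0% higher. The median member then stood at -0.34 and the median gene at 0.76. No member was called in opposite directions by TMM and by totals, and all 28 members called lower by totals were among the 61. Totals moved the fold changes of all genes upward together, so these 28 could hardly lie outside the 61. With deposited TPM and limma 21 members fell and 5 rose, beside 7.05% of all genes lower and 54.4% higher. Among the 5 was Mrpl45, which TMM scaling called lower.

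**Figure D1:**
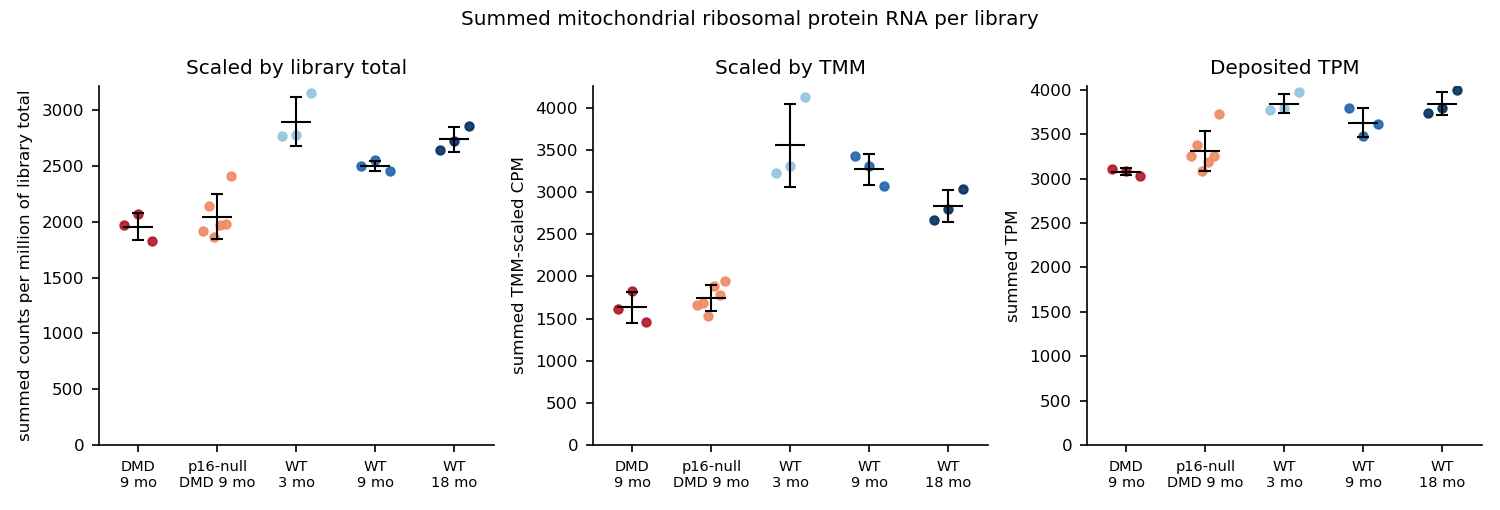
Summed level of the 72 entries in each library (points) with group means and SD (bars), as counts per 1e+06 of the library total, TMM-scaled CPM and deposited TPM. In all 3 panels the DMD libraries lie below the WT libraries of 9 months, with a gap that is widest after TMM scaling. In deposited TPM the p16-null DMD libraries overlap WT. Replicate 6 of p16-null DMD (3726 TPM) lies above WT replicates 2 and 3 (3479 and 3612 TPM).

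In the large subunit, Mrpl16, a protein of the tRNA-binding side of the large subunit, stood at 22.4, 23.1 and 20.1 CPM in DMD libraries, against 81.5, 75.1 and 67.7 CPM in WT. The 3 DMD libraries were close together and far below WT (log2 fold change -1.77 ± 0.16 SE, adjusted p = 2.5e-06 by edgeR). By library totals Mrpl16 still fell, by 1.12 on the log2 scale.

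Mrpl15 stood at 58.4, 55.2 and 51.3 CPM in DMD, against 150.3, 152 and 154 CPM in WT (-1.46 ± 0.14, adjusted p = 3.1e-06 by edgeR). Mrpl40 stood at 25.8, 22.1 and 18.3 CPM in DMD, against 56.9, 64.2 and 63.97 CPM in WT (-1.47 ± 0.17, adjusted p = 1.1e-05 by edgeR). Neither gene overlapped between the groups.

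Of the stalk, which receives the translation factors, Mrpl12 averaged 51.0 ± 7.79 CPM in DMD and 115.9 ± 25.4 CPM in WT (SD, n = 3 each), and Mrpl10, at its base, averaged 23.9 ± 3.05 CPM and 43.7 ± 2.74 CPM in DMD and WT. Their log2 fold changes were -1.18 ± 0.21 and -0.86 ± 0.14. Mrpl3, near the catalytic centre, was at -1.11 ± 0.16, Mrpl44, which has an RNase III fold, at -0.996 ± 0.18, and Mrpl41 at -0.96 ± 0.19. Mrpl58, which rescues stalled ribosomes by freeing the peptide, was at -1.22 ± 0.22. All 6 passed in the TMM-scaled fit, and by library totals Mrpl12 (-0.53), Mrpl3 (-0.46) and Mrpl58 (-0.57) still did.

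In the small subunit, Mrps9 stood at 30.2, 27.8 and 24.3 CPM in DMD, against 57.1, 65.2 and 60.8 CPM in WT (-1.15 ± 0.14, adjusted p = 1.5e-05 by edgeR). Every DMD library was below every WT library. Mrps12, the protein of the decoding site, was at -0.92 ± 0.22, and Mrps5, by the path of the mRNA, at -1.18 ± 0.20. The head protein Mrps7 was at -0.67 ± 0.17, and Mrps22 and the RNA-binding Mrps27, which bacterial ribosomes lack, were at -1.31 ± 0.20 and -0.71 ± 0.20. These 5 passed with TMM, and Mrps5 (-0.53) and Mrps22 (-0.68) also by library totals. Mrps30, a large subunit protein, was at -1.08 ± 0.17.

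The 3 paralogues of S18 take different places, Mrps18a in the large subunit and Mrps18b and Mrps18c in the small one. Mrps18b stood at 35.05, 38.3 and 29.6 CPM in DMD, against 96.8, 86.8 and 78.5 CPM in WT (-1.34 ± 0.17, adjusted p = 1.7e-05 by edgeR). The other paralogues also fell, with Mrps18a at -1.19 ± 0.21 and Mrps18c at -0.83 ± 0.24. Mrps18b and Mrps18a also fell by library totals (-0.70 and -0.54), and Mrps18c did not pass there (-0.19, adjusted p = 0.54 by edgeR).

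Mrps36 had the lowest fold change of all members. It stood at 32.5, 23.6 and 16.4 CPM in DMD, against 82.5, 91.0 and 77.6 CPM in WT (-1.78 ± 0.24, adjusted p = 3.5e-05 by edgeR). The spread between DMD libraries was wide, but all lay below WT. By library totals it fell by 1.15 on the log2 scale.

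A few members were not called lower. Mrpl52, a protein particular to mitochondrial ribosomes, stood at 37.9, 38.95 and 34.7 CPM in DMD, against 39.6, 30.7 and 27.8 CPM in WT (0.19 ± 0.17, adjusted p = 0.39 by edgeR), and the groups overlapped. By library totals it was higher in DMD, with 43.4 to 46.3 CPM against 22.3 to 28.9 CPM in WT (0.84 ± 0.19, adjusted p = 0.0014 by edgeR). Mrps26 stood at 22.8, 30.3 and 20.4 CPM in DMD, against 19.6, 23.2 and 18.5 CPM in WT on the TMM scale (0.27 ± 0.23). By totals it stood at 25.5 to 34.2 CPM in DMD and at 14.3 to 17.9 CPM in WT (0.90 ± 0.22, adjusted p = 0.0024 by edgeR). Mrpl20, Mrpl23, Mrpl49, Mrps2, Mrps17, Mrps33 and Mrps35 passed under neither scaling.

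**Figure D2:**
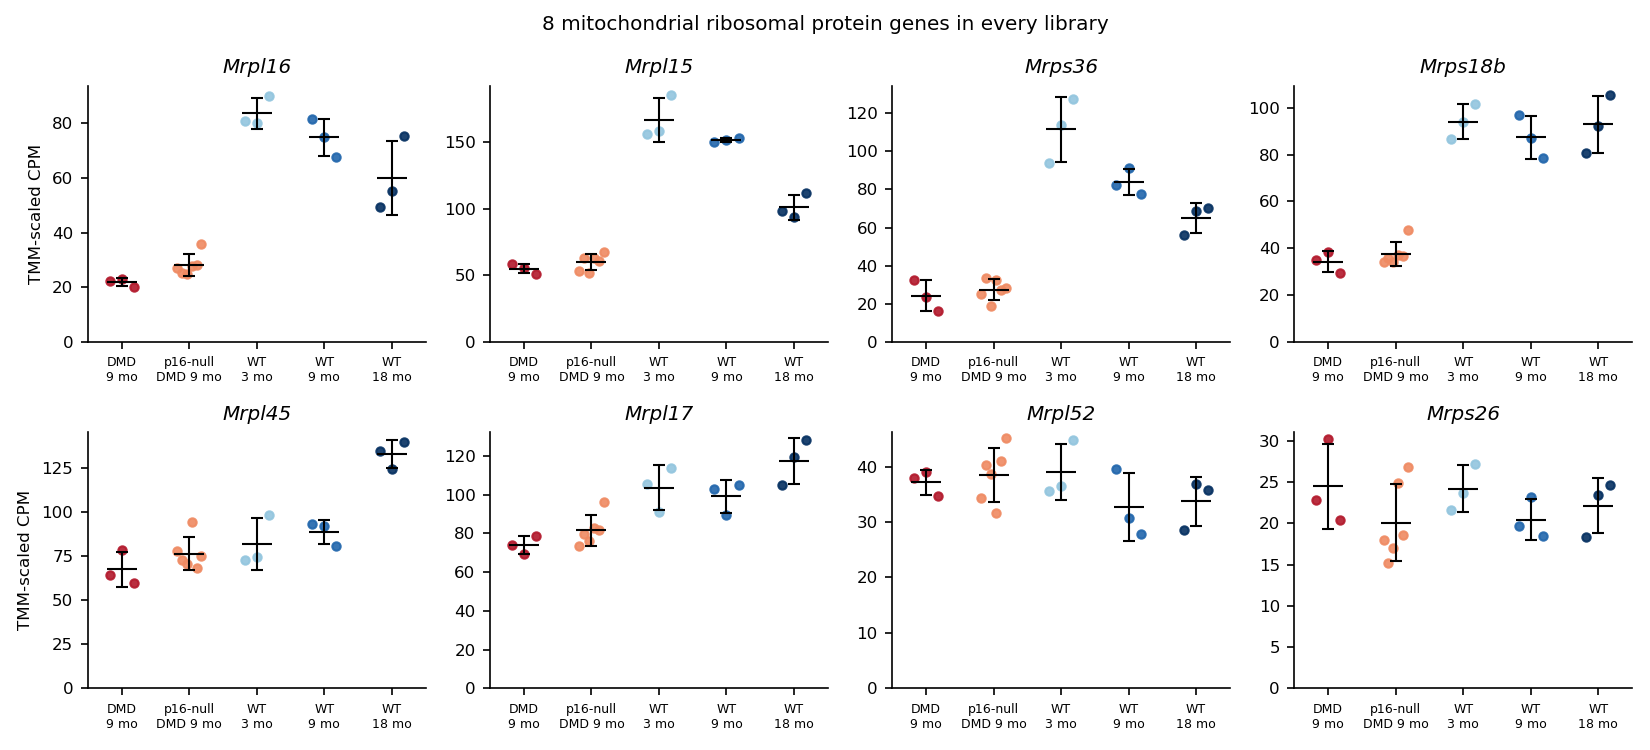
TMM-scaled CPM of 8 members in each library (points) with group means and SD (bars). Mrpl16, Mrpl15, Mrps36 and Mrps18b are low in all DMD and p16-null DMD libraries, Mrpl52 and Mrps26 overlap between groups, and Mrpl45 is highest in WT at 18 months.

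Whether the members changed unequally was asked with each library scaled to its own member total. The scaling factor then needs no assumption about other genes, but the spread and the adjusted p were still estimated over all genes tested. Against the member total 10 members were higher in DMD than in WT and 8 lower, beside 66.6% of all genes higher and 4.48% lower. With so many genes called, the adjustment removed none of the 18 members with an unadjusted p under 0.05. The higher members were Mrps26 (1.25 ± 0.19), Mrpl52 (1.19 ± 0.18), Mrps2, Mrpl20, Mrpl49, Mrpl45, Mrpl17, Mrps33, Mrpl23 and Mrps35. The lower ones were Mrps36 (-0.80 ± 0.22), Mrpl16 (-0.77 ± 0.15), Mrps28, Mrpl40, Mrpl54, Mrpl15, Mrpl4 and Mrps18b. Both sets hold large and small subunit members. The lower calls numbered 5 without DMD replicate 1 or 3 and 4 without WT 9 months replicate 3. The summed counts of the large subunit were 2.45, 1.96 and 2.33 times those of the small subunit in DMD, against 2.32, 2.25 and 2.35 times in WT, so the balance of the subunits overlapped. DMD replicate 2 was the lowest of all 18 libraries in this ratio, also without Mrps17 (2.02).

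Other genes of mitochondrial gene expression were also lower on the TMM scale, where 21.8% of all genes were called lower and 26.4% higher. Of 19 mitochondrial translation factors 15 fell in DMD and none rose (median -0.98), among them the elongation factor Gfm1 (-1.43 ± 0.17), the mRNA-stabilising Lrpprc (-1.47 ± 0.19) and the release factor Mtrf1 (-1.61 ± 0.21). Of 19 tested tRNA charging genes 14 fell (median -0.92), with Qrsl1, of the enzyme that makes glutaminyl-tRNA, at -2.19 ± 0.26. Of 29 tested genes of ribosome assembly and rRNA modification 17 fell (median -0.69), with the rRNA chaperone Eral1 at -1.67 ± 0.16. Of 5 ribosomal proteins named otherwise 3 fell, Gadd45gip1 (-1.13 ± 0.20), Chchd1 and Ptcd3. Among 20 genes of mitochondrial transcription and its regulators 10 fell, with the nuclear receptor Esrra at -1.71 ± 0.26 and Tfb2m at -1.24 ± 0.22, and 2 rose, including Myc (2.31 ± 0.36). By library totals 7 translation factors and 5 tRNA charging genes fell and none rose, 4 assembly genes fell and 2 rose, 1 otherwise named ribosomal protein fell and 1 rose, and 3 transcription genes fell and 5 rose, beside the 8.38% of all genes lower and 52.0% higher.

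The members were also set against other RNA of the same library, which needs no scaling. All 29 tested nuclear respiratory chain genes fell in DMD (median -1.73), with Sdha of complex II at -2.05 ± 0.19, and 28 fell by library totals. Of all genes 21.8% were called lower with TMM and 8.38% by library totals. For each count of these genes there were 0.257, 0.354 and 0.319 member counts in DMD libraries, and p16-null DMD libraries held 0.217 to 0.332 (median 0.257), against 0.187, 0.168 and 0.193 in WT at 9 months. The dystrophic libraries were all above WT in this ratio. For each member count there were 15.7, 17.6 and 17.6 cytosolic ribosomal protein counts in DMD libraries, and p16-null DMD libraries held 10.5 to 16.6 (median 13.2), against 6.04, 5.58 and 6.32 in WT. Mitochondrially encoded mRNA stood at 46.2, 35.2 and 35.3 counts for each member count in DMD libraries, with 33.2 to 55.0 for p16-null DMD (median 37.9), against 48.4, 74.1 and 56.9 in WT. The DMD libraries lay below WT in that ratio, and p16-null DMD replicate 4 overlapped WT.

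**Figure D3:**
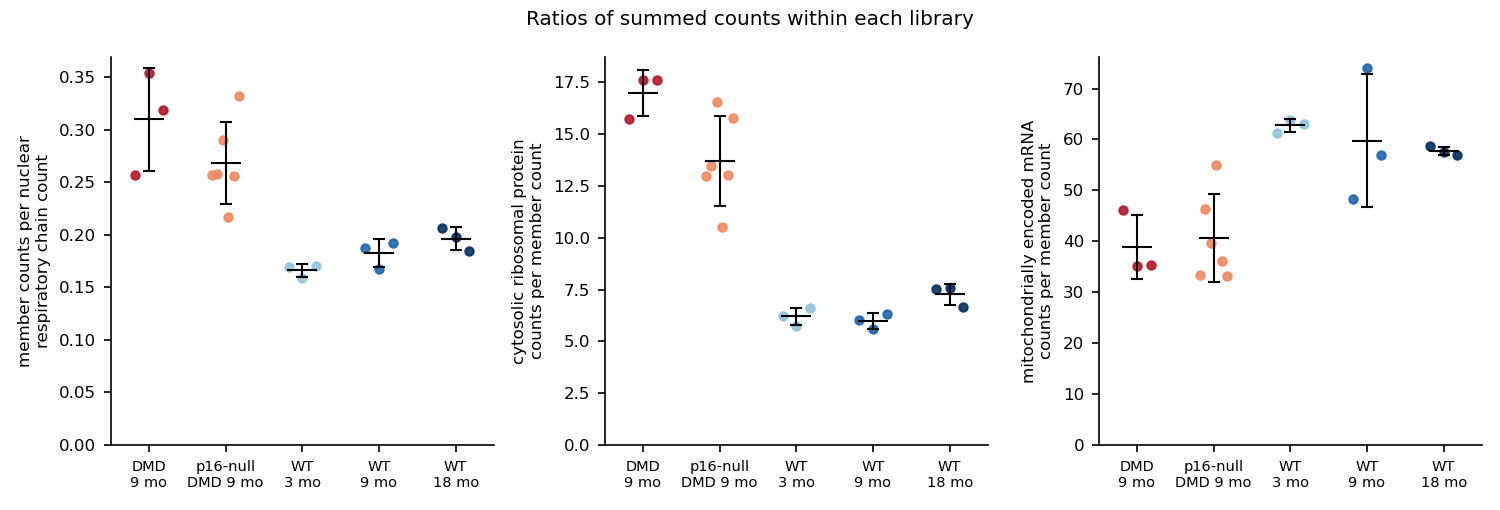
Ratios of summed counts within each library (points) with group means and SD (bars). Members are high relative to nuclear respiratory chain genes and low relative to cytosolic ribosomal protein genes in DMD and p16-null DMD libraries, and these ratios need no scaling between libraries.

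The cell makeup of the samples moved with these differences. Fast fibre markers summed to 39306 to 62189 CPM in DMD, against 143560 to 159610 CPM in WT at 9 months, and 9 of 9 tested fell. All 12 macrophage markers rose, with sums of 2729 to 4267 CPM in DMD and 466 to 521 CPM in WT, and all 11 fibroblast markers rose, with 6360 to 11961 CPM and 2351 to 2520 CPM in DMD and WT. Embryonic fibre markers rose in 7 of 8 cases (786 to 1380 CPM in DMD, against 111 to 155 CPM in WT) and adipocyte markers in 6 of 7 (1557 to 1621 CPM in DMD, against 302 to 349 CPM in WT). These marker counts, on the TMM scale, stand beside 21.8% of all genes called lower and 26.4% called higher. The part of the markers' cells in the lower member RNA was not tested. In bulk tissue fewer fibres and less of the member RNAs per fibre cannot be told apart.

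In p16-null DMD muscle the members were lower than in WT to a similar extent on the TMM scale. This comparison shares its WT libraries with that of DMD above. Of 70 members 63 fell and none rose (median -0.86), beside 22.7% of all genes lower and 27.5% higher. The median over all genes tested was 0.11 on this scale and 0.72 by library totals. By library totals 25 fell and 4 rose, Mrpl52, Mrpl45, Mrpl17 and Mrps26 (median -0.26, beside 8.45% of all genes lower and 54.5% higher), and with deposited TPM and limma 18 fell and 6 rose, beside 6.64% of all genes lower and 59.6% higher. Mrpl15 ranged from 52.1 to 67.7 CPM in the 6 libraries with a median of 61.8 (-1.33 ± 0.11, adjusted p = 9.2e-07 by edgeR). Mrpl16 ranged from 24.9 to 35.9 CPM with a median of 27.4 (-1.40 ± 0.13), Mrps18b from 34.1 to 47.6 CPM with a median of 36.2 (-1.21 ± 0.14) and Mrpl54 from 26.1 to 39.3 CPM with a median of 30.2 (-1.49 ± 0.17). WT libraries stood at 92.7, 82.7 and 88.7 CPM for Mrpl54, above each p16-null DMD library, as was so for the other 3 genes. Against the member total 7 members were higher and 8 lower, beside 67.4% and 4.56% of all genes, and the lower calls numbered 5 without p16-null DMD replicate 1 or WT 9 months replicate 2 or 3. Fast fibre markers summed to 33827 to 68659 CPM in p16-null DMD, macrophage markers to 1919 to 5227 CPM and fibroblast markers to 6865 to 18284 CPM, none of which overlapped WT at 9 months, and their part was not tested.

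Between p16-null DMD and DMD muscle no member passed. The count was 0 in both directions by edgeR and by DESeq2, under every alternative tried, beside 0.00% of all genes called higher and 0.00676% called lower. At an unadjusted p under 0.05 there were 2 members, Mrpl16 (0.37 ± 0.14, adjusted p = 0.82 by edgeR) and Mrps30 (0.37 ± 0.14, adjusted p = 0.83 by edgeR). The median member stood 0.12 higher in p16-null DMD and the median gene 0.02 higher. That median was 0.01 without DMD replicate 3 and 0.19 without DMD replicate 2.

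**Figure D4:**
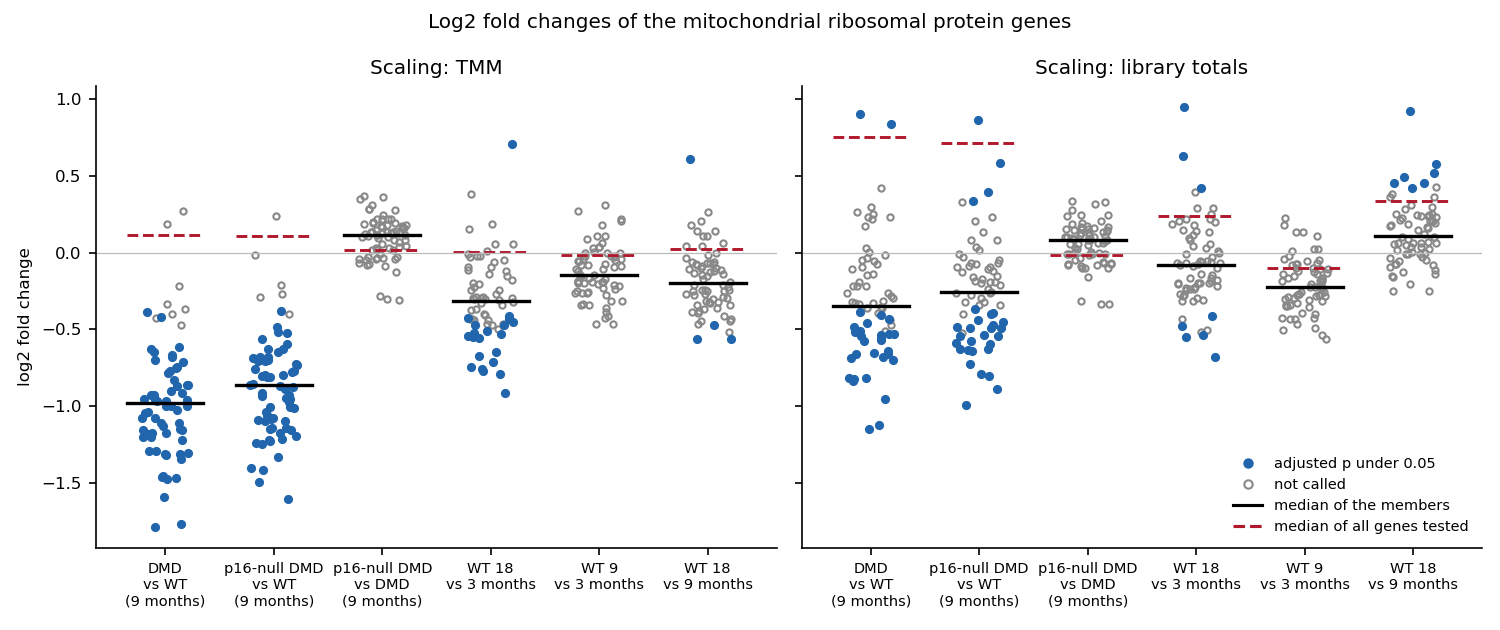
Log2 fold changes of 69 tested members (Mrps17 is left out of the points) in 6 comparisons under TMM and library-total scaling, with filled points for adjusted p under 0.05 and lines for the medians of the members and of all genes tested. The median of the members lies below that of all genes in both comparisons with WT at 9 months. A change of scaling moves all genes by nearly the same amount, so this gap could hardly differ between the scalings. Between WT ages 21 members pass for 18 against 3 months with TMM scaling.

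Among WT ages the members were lower in old muscle on the TMM scale, whereas with deposited TPM their median was close to 0 (0.01 between 18 and 3 months). Their sum was 3227, 3313 and 4126 CPM at 3 months, 3433, 3308 and 3069 CPM at 9 months and 2665, 2802 and 3040 CPM at 18 months. Every library of 18 months lay below every one of 3 or 9 months on this scale, whereas per 1e+06 counts of the library total 18 months overlapped 3 months and lay above 9 months (2766, 2775 and 3151 at 3 months, 2498, 2549 and 2458 at 9 months, 2640, 2720 and 2856 at 18 months). Between 18 and 3 months 20 of 70 members fell and 1 rose (median -0.32), beside 10.1% of all 13487 genes lower and 9.31% higher. For 37 members every library of 18 months lay below every one of 3 months, as did 18.4% of all genes. On the scale of library totals 15 lay wholly below and 6 wholly above, beside 8.51% and 32.9% of all genes. Without WT 18 months replicate 1 or 2 or WT 3 months replicate 3 the falls numbered 8, 9 and 10. By library totals 5 fell and 3 rose (median -0.08), beside 4.83% of all genes lower and 19.3% higher. With deposited TPM and limma 3 fell and 4 rose, beside 3.18% lower and 22.5% higher. The median over all genes tested was 0.003 with TMM and 0.24 by library totals. The median member differed from it by -0.32 and -0.31, a gap that a change of scaling hardly moves.

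The 5 members that fell under both scalings were Mrpl42, Mrpl15, Mrps36, Mrps15 and Mrpl18. Mrpl42 (ENSRNOG00000042740) stood at 52.3, 67.8 and 78.3 CPM at 3 months, at 42.3, 53.4 and 49.4 CPM at 9 months and at 33.7, 35.5 and 35.3 CPM at 18 months. Old libraries were below all younger ones (-0.92 ± 0.15 for 18 against 3 months, adjusted p = 0.00060 by edgeR).

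Mrps36 stood at 93.6, 114 and 127 CPM at 3 months, at 82.5, 91.0 and 77.6 CPM at 9 months and at 56.2, 68.9 and 69.998 CPM at 18 months. The 3 ages did not overlap (-0.77 ± 0.14, adjusted p = 0.0015 by edgeR). Mrpl15 stood at 98.5, 93.8 and 111.9 CPM at 18 months and at 156, 158 and 186 CPM at 3 months (-0.71 ± 0.12, adjusted p = 0.0011 by edgeR). Mrps15, at the contact of the subunits, stood at 89.6, 81.3 and 85.3 CPM at 18 months and at 131, 126 and 189 CPM at 3 months (-0.79 ± 0.15, adjusted p = 0.0018 by edgeR).

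Mrpl45 was the one member called higher at 18 months on the TMM scale. Its protein anchors the ribosome to the inner membrane at the mouth of the tunnel from which new peptides emerge. It stood at 72.9, 74.5 and 98.7 CPM at 3 months, at 93.6, 91.98 and 81.1 CPM at 9 months and at 135, 125 and 140.2 CPM at 18 months. All old libraries were above all younger ones, both for 18 against 3 months (0.71 ± 0.14, adjusted p = 0.0020 by edgeR) and for 18 against 9 months (0.61 ± 0.13, adjusted p = 0.0046 by edgeR). It rose by library totals too (0.95 and 0.92 in the 2 comparisons). In DMD it stood at 64.3, 78.7 and 59.9 CPM, a marginal fall against WT (-0.39 ± 0.15, adjusted p = 0.045 by edgeR) that had the other sign by library totals (0.25, adjusted p = 0.13 by edgeR) and with deposited TPM (0.37, adjusted p = 0.019 by limma). Leaving out DMD replicate 1 or 3, WT 9 months replicate 1 or 2, or p16-null DMD replicate 1, 2 or 6 ended that call. Mrpl17 did not pass on the TMM scale between 18 and 3 months (0.19 ± 0.13, adjusted p = 0.35 by edgeR) but rose by library totals (0.42, adjusted p = 0.025 by edgeR), as did Mrpl49 (0.63, adjusted p = 0.012 by edgeR).

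Against the member total, 3 members were higher at 18 than at 3 months, Mrpl45 (1.03 ± 0.15), Mrpl49 and Mrpl17, and 3 were lower, Mrpl42 (-0.59), Mrps15 and Mrps36, beside 18.5% of all genes higher and 3.07% lower. Without WT 18 months replicate 1 the counts were 1 and 0. The lower calls numbered 0 also without WT 18 months replicate 2 or 3 or WT 3 months replicate 2, and 1 without WT 3 months replicate 1.

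Between 9 and 3 months no member passed by edgeR or by DESeq2, beside 1.13% of all genes lower and 1.29% higher, and 8 had an unadjusted p under 0.05. By library totals the count was also 0 in both directions, beside 1.75% of all genes lower and 0.879% higher. Mrps36 had the smallest p (-0.43 ± 0.14, adjusted p = 0.12 by edgeR). Between 18 and 9 months Mrpl15 (-0.56 ± 0.12), Mrpl54 (-0.56 ± 0.16) and Mrps15 (-0.47 ± 0.15) fell and Mrpl45 rose, beside 7.37% of all genes lower and 6.72% higher. Without WT 18 months replicate 1 or 2 the falls numbered 1, and without WT 3 months replicate 3, which shares the fit, 6. By library totals none fell and 7 rose (median 0.11, beside 2.85% of all genes lower and 24.1% higher). The median of the members thus has no direction here that holds under both scalings. Over all genes tested the median was 0.03 with TMM and 0.34 by library totals, and the median member differed from it by -0.22 and -0.23. The study design does not name these 2 pairings.

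Old WT muscle also differed in its markers. Between 18 and 3 months 7 of 9 fast fibre markers fell (83986 to 97614 CPM at 18 months, against 138190 to 164930 CPM at 3 months) and all 8 embryonic fibre markers rose (715 to 775 CPM, against 111 to 123 CPM). Macrophage markers rose in 11 of 12 cases (757 to 1110 CPM at 18 months, against 427 to 657 CPM at 3 months). Of 11 fibroblast markers 4 fell and 1 rose, with sums of 2237 to 2557 CPM at 18 months and 4030 to 8500 CPM at 3 months, which did not overlap. Their part in the member changes was not tested. Of nuclear respiratory chain genes 22 of 29 fell (median -0.65). Of translation factors 3 of 19 fell and 1 rose, and of tRNA charging genes 1 of 19 fell. These and the marker counts stand beside 10.1% of all genes called lower and 9.31% called higher. The ratio of member to nuclear respiratory chain counts was 0.206, 0.198 and 0.184 at 18 months and 0.169, 0.159 and 0.170 at 3 months, without overlap.

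The members that fell with age on the TMM scale were also lower in DMD on that scale, in comparisons that share no library. All 20 of the members lower at 18 months were among the 61 lower in DMD, which is 32.8% of those 61, but 87.1% of all tested members were lower in DMD. Across the 70 members the 2 sets of log2 fold changes had a Pearson correlation of 0.42 and a Spearman correlation of 0.40, a description over genes that share libraries within each comparison. Mrps36, Mrpl15 and Mrpl42 were low in both, whereas Mrpl40 and Mrps18b were low in DMD (-1.47 and -1.34) and stood at 0.06 and -0.01 between 18 and 3 months. Mrpl45 and Mrpl17 stood at 0.71 and 0.19 between 18 and 3 months and at -0.39 and -0.42 in DMD.

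**Figure D5:**
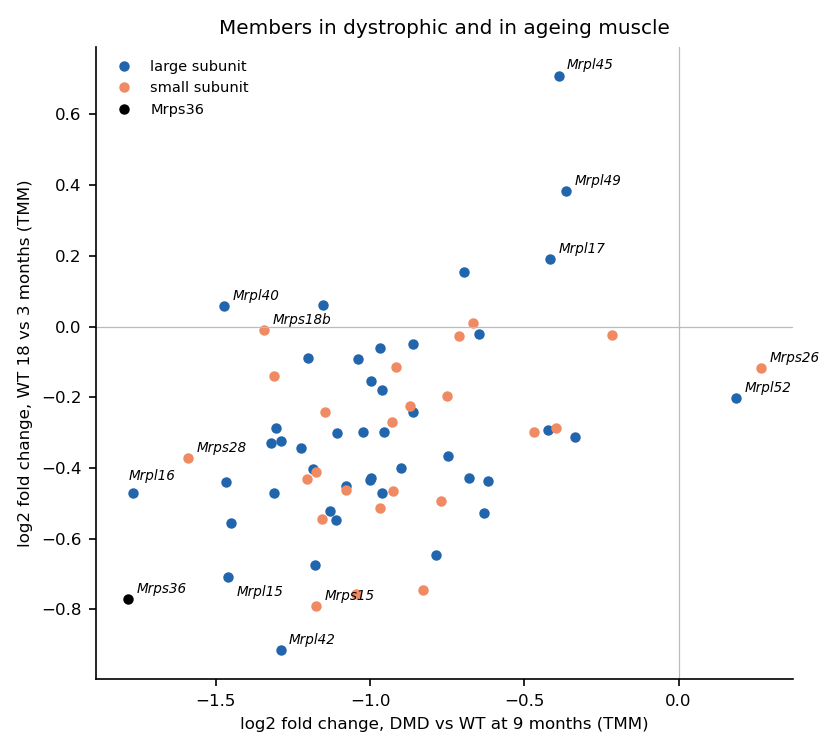
Log2 fold change of each member in DMD against WT at 9 months (x axis) and in WT at 18 against 3 months (y axis), TMM scaling, without Mrps17. Points of the large and small subunit are mixed, Mrps36 is low on both axes, and Mrpl45 is the highest on the age axis at 0.71.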

How the data were processed

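RNA-seq of 18 rat muscle libraries was analysed at the level of genes. The deposited tables hold expected (estimated) counts and TPM per gene, and the submitters' processing notes name Trimmomatic, FastQC, STAR 2.7.10b, RSEM 1.3.3 and the build mRatBN7.2, with no order. The labels do not state the annotation or the strand setting. The authors' expected counts were rounded to whole numbers for edgeR 4.0.16 (R 4.3.3). The TPM deposited by the authors served for levels between genes and, as log2(TPM + 1) and log2(TPM + 0.1), for limma 3.58.1.

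Tests were edgeR's quasi-likelihood test with TMM scaling, filterByExpr and Benjamini-Hochberg adjustment over all genes tested, at 0.05. Groups of 9 months shared 1 fit, 18 against 3 months was fitted alone, and comparisons with WT at 9 months among ages used 1 fit of 3 ages. Standard errors are the fold change divided by the root of F. Alternatives were library totals, RLE, DESeq2 1.42.0, TPM, other filters and fits, and leaving out each library. Scaling to the member total was chosen after the data were seen. Entries without a symbol (3.64% to 17.6% of counts) stayed in the fits, and an alternative left them out. Replicates differed beyond counting noise, so none were merged. The methods were tested on simulated data in which most genes did not change and the changes were balanced in direction. Those tests therefore do not bear on the choice of scaling.

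The members and all gene lists were chosen with earlier results of these data known. Named members are a panel by role, the members with the smallest p among those whose groups did not overlap (up to 4 in each direction and comparison), the 3 highest and 3 lowest by TPM, any called in opposite directions by the 2 main scalings (there were none), and up to 3 genes of each list by p. Mrpl52, Mrps26, Mrpl49, Mrpl18 and the members listed beside a count were singled out after their values were seen. Promoters are from RefSeq (GRCr8), not the build of the counts.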

Additional observations from a re-analysis of the deposited data

Results flagged for a closer look

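For the named members, 35 sets of values from the 6 p16-null DMD libraries were checked for a library far from the others, and 7 stood out. A single set is flagged by chance in about 1 in 20 cases. The sets share the same 6 libraries and are not independent, so that rate does not test the number flagged. Replicate 6 was the highest library for Mrps18b (47.56 CPM), Mrpl16 (35.93 CPM) and Mrps17 (13.9 CPM). Replicate 4 was the highest for Mrpl45 (94.33 CPM) and Mrpl3 (51.37 CPM). Replicate 1 was the lowest for Mrpl44 (16.43 CPM) and replicate 2 the lowest for Mrpl10 (23.48 CPM). Groups of 3 libraries were not checked in this way.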

How the results depend on the processing

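With deposited TPM and limma, where unit and test change together, 21 members were lower and 5 higher in DMD than in WT (medians -0.2349 with pseudocount 1 and -0.2541 with 0.1), and 18 lower and 6 higher in p16-null DMD (-0.08658 and -0.0896). Between 18 and 3 months 3 were lower and 4 higher (0.008483 and 0.008524), and between 18 and 9 months 0 and 4 (0.09396 and 0.08737). Library totals gave 28 lower and 2 higher (median -0.3444) for DMD, 25 and 4 (-0.2592) for p16-null DMD, 5 and 3 (-0.07789) for 18 against 3 months, and 0 and 7 (0.112) for 18 against 9 months. Totals without unnamed and mitochondrially encoded entries, chosen after seeing the data, gave 37 and 2 (-0.4678), 31 and 3 (-0.3451), 4 and 4 (-0.02353), and 0 and 6 (0.0786) in the same order. The causes were not tested. No share of all genes called is given for TPM between 18 and 9 months or for totals without those entries. The same holds for DESeq2, the replicate block, other filters and fits, and libraries left out. Counts under these settings show how far the calls moved and are not set against all genes. Lower calls between 18 and 9 months numbered 6 with DESeq2 or only the groups compared, 5 with no filter and 1 with all 18 libraries, which gave 12 for 18 against 3 months. Against the member total, only the groups compared gave 2 higher between 18 and 9 months.

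Single members changed sign. Between TMM and library totals 10 of all tested members did so in DMD and 11 in p16-null DMD. Only members named in the text were followed through the other settings, so the lists here are not complete. In DMD by library totals they included Mrpl45 (0.2513) and Mrpl17 (0.2311). Without unnamed and mitochondrial entries these stood at 0.1241 and 0.105. With TPM they included Mrps7 (0.06991 and 0.07086 for the pseudocounts 1 and 0.1), Mrpl45 (0.3694 and 0.3755), Mrps27 (0.02724 and 0.02763) and Mrpl17 (0.3431 and 0.3451). Mrps17 stood at -7.003 without DMD replicate 2 (adjusted p = 0.0383 by edgeR) and between that and 3.018 over all libraries left out. In p16-null DMD by totals the members that changed sign included Mrpl45 (0.3943, or 0.3094 without those entries) and Mrpl17 (0.3364). With TPM they included Mrps7 (0.09132 and 0.09263), Mrpl10 (0.06517 and 0.06695), Mrpl45 (0.5581 and 0.5666), Mrps30 (0.03945 and 0.04028), Mrps27 (0.1673 and 0.1754) and Mrpl17 (0.5059 and 0.5088).

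Leaving out each library in turn gave 56 to 63 lower in DMD, 57 to 65 in p16-null DMD, 8 to 20 lower and 1 to 2 higher between 18 and 3 months, and 1 to 6 lower between 18 and 9 months. The median between 9 and 3 months ran from -0.1773 to -0.02017. Against the member total the lower calls ran from 4 to 8 in DMD, 5 to 8 in p16-null DMD, 0 to 3 between 18 and 3 months and 0 to 1 between 18 and 9 months, and the higher calls from 1 to 4 and 1 to 2 in the age comparisons. Same-numbered libraries did not deviate together (correlations -0.21 to 0.10), and the main fits treated them as unpaired. With so few libraries in each group this check cannot exclude a pairing. With the replicate block 59 members were lower in DMD, 61 in p16-null DMD, 24 between 18 and 3 months and 2 between 18 and 9 months.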
